A study of Mus musculus with 36 samples.

Results

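The comparison concerns the forelimbs of mouse embryos that lack the enhancer hs1262. These were profiled for acetylation of histone H3 at lysine 27 (H3K27ac) by chromatin immunoprecipitation and sequencing (ChIP-seq). The 2 peak lists of the hs1262 line, out of 18 H3K27ac lists, were set against 6 lists of the knockout lines hs1467, hs1586 and hs1603, called the sister lines here. These 8 lists were chosen because they carry the same 2 run tags: one run held replicate 1 of all 4 lines, and the other run held replicate 2. Differences in list size, retention and similarity were taken within a run, while the counts and the Fisher test per region took both runs together. All groups were embryos of the FVB strain at embryonic day 11.5 without treatment, each list came from pooled forelimbs, and the antibody was the same throughout. The hs1262 embryos were enhancer-null for hs1262 and the sister embryos were enhancer-null for hs1467, hs1586 or hs1603, so no group of these runs was wild type. The whole series had 36 samples, of which 18 were inputs that were not used here. Lists of other runs (4 of wild type, 2 of the hs72 line and 4 of the mm1179 line, also enhancer knockouts) serve to define regions and to show how often a region was called elsewhere.

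H3K27ac is placed on nucleosomes that flank active enhancers and promoters, so an enhancer that is in use usually lies inside or beside a peak of the mark. A limb bud enhancer acts on a gene that can lie far away on the same chromosome, and several enhancers often act on the same gene. hs1262 is known as a limb enhancer in the gene desert beside Shox2, which encodes a homeobox transcription factor needed for the proximal limb skeleton. A homozygous deletion leaves no DNA to map at the deleted interval, so a peak list of deleted animals can hold no peak inside it. In pooled tissue, fewer cells that carry the mark and less of the mark per cell cannot be told apart.

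The sources used here do not give the interval deleted in the hs1262 line. What was searched for was therefore a stretch that all sister lists called and the hs1262 lists did not. The genome (build mm9) was divided into tiles of 500 bp, and a tile was called when peaks covered at least 250 bp of it. In a window from 65 to 68 Mb of chromosome 3, placed around the neighbourhood of Shox2 from general knowledge of the locus, all 6 sister lists called 204 tiles. Of these, 8 were uncalled in hs1262 replicate 1 and 4 in hs1262 replicate 2, and the same 4 were uncalled in both. Across the genome, 172 of the 110249 tiles called by all 6 sister lists were uncalled in both hs1262 lists, or 0.156%. The share inside the window was 1.96%.

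Of the 4 tiles, 3 were adjacent and formed a segment of 1.5 kb at chr3:66743001-66744500. Neither hs1262 list had a peak over it or within 10 kb of it. Within the replicate 1 run alone the segment extended over 5 tiles, chr3:66742501-66745000. Within the replicate 2 run it was chr3:66743001-66744500. Neither hs1262 list covered any base of the longer stretch. The segment was shorter in the replicate 2 run because hs1467 replicate 2 called 3 of its 5 tiles, and not through a difference between the hs1262 lists. In the hs1262 replicate 1 list the segment lay in a stretch of 203.8 kb without a peak, with the nearest peaks 73.3 kb before and 129.0 kb after it. In the replicate 2 list the peak-free stretch was 93.2 kb, with peaks 73.1 kb before and 18.6 kb after. All 6 sister lists had their next peak 17.8 to 18.9 kb after the segment, so replicate 2 called this neighbouring peak and replicate 1 did not.

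Every sister list had 1 peak over the segment. Peak strength is given as a percentile of the authors' score within the list a peak belongs to, since scores of different lists cannot be compared directly. The replicate 1 peak of hs1467 was chr3:66741711-66744988 with a score of 215.5, the 72.9th percentile of its list. Its replicate 2 peak was narrower, chr3:66742916-66744748, and weaker, with a score of 75.1 at the 22.8th percentile. In hs1586 the replicate 1 peak, chr3:66742482-66744914, had a score of 74.9 at the 38.2nd percentile, and the replicate 2 peak, chr3:66741353-66744939, had 366.5 at the 64.0th percentile. In hs1603 the replicate 1 peak, chr3:66741255-66745010, had a score of 154.8 at the 64.3rd percentile, and the replicate 2 peak, chr3:66741254-66744995, had 270.4 at the 59.6th percentile. The sister peaks were therefore of middling rank. That both replicates of each sister line called the segment was required by the search and is no separate result.

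Outside these runs the same segment was called in 6 of 10 lists. A peak was present in hs72 replicate 2 at the 62.6th percentile, in mm1179 replicates 1, 3 and 4 at the 51.3rd, 32.7th and 52.1st percentiles, and in wild-type replicates 1 and 2 at the 5.92nd and 36.0th percentiles. No peak was present in hs72 replicate 1, mm1179 replicate 2 or wild-type replicates 3 and 4. An uncalled segment was therefore not limited to hs1262: it was also seen in 2 of 4 wild-type lists. No list gives reads, so whether the hs1262 libraries hold any reads from this stretch could not be read from them.

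**Figure D1:**
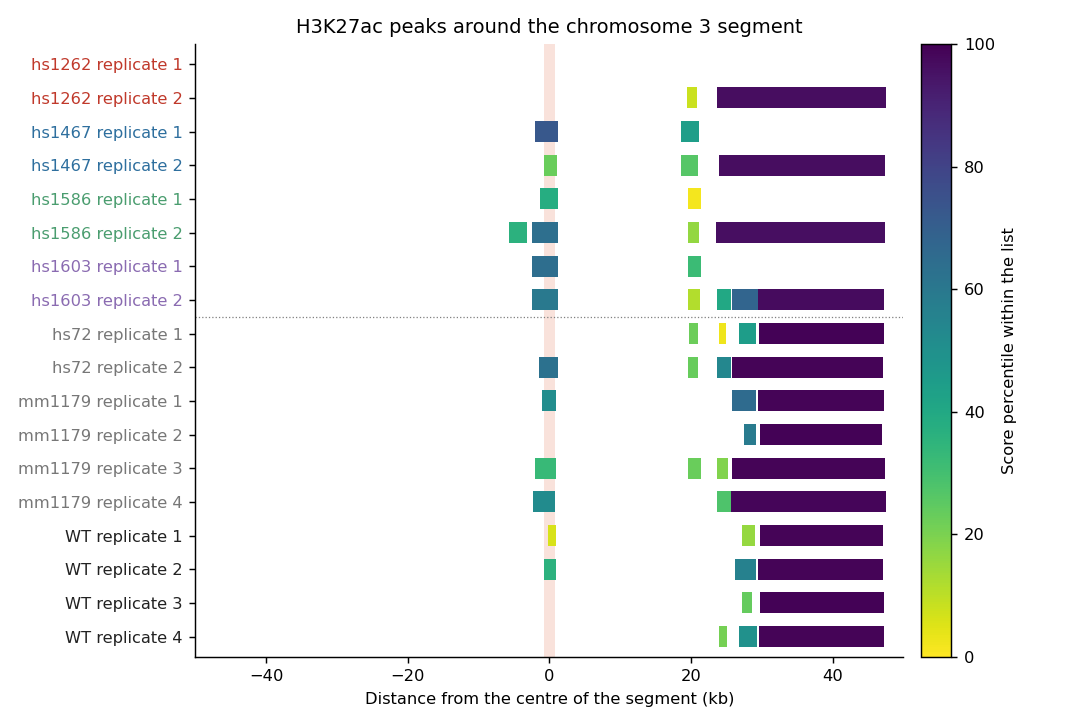
Peaks of the 18 lists around the chromosome 3 segment, by distance in kb from the segment's centre; each row is 1 list, each bar a peak coloured by its score percentile, and the shaded band the 1.5 kb segment. The 2 hs1262 rows have no bar in the band, all 6 sister rows have one, and 6 of the 10 rows of other runs have one.

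The strongest peak nearby was called in hs1262 replicate 2 and not in replicate 1. Starting 28.7 kb after the segment, a broad domain of 17.3 to 17.6 kb lay within chr3:66773197-66791074 in the wild-type lists, with a score of 3100. A peak of at least 15 kb with that score was found here in 14 of the 18 lists, at the 96.5th to 99.5th percentile. hs1262 replicate 2 had it as a peak of 23.8 kb at the 96.7th percentile. hs1262 replicate 1 did not have it, and neither did the other 3 lists of the replicate 1 run, so the missing call was common to all 4 lines of that run. Another weak peak preceded it in hs1262 replicate 2, chr3:66763138-66764608, at the 7.90th percentile.

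Over the whole 3 Mb window the hs1262 lists held 54 peaks (replicate 1) and 99 peaks (replicate 2), against 51 to 60 and 90 to 95 in the sister lists. The covered length was 158.7 kb in hs1262 replicate 1, against 161.5 kb in hs1467, 160.5 kb in hs1586 and 171.6 kb in hs1603 of the same run. In the replicate 2 run it was 287.0 kb in hs1262, against 270.9, 272.0 and 244.2 kb in the same sisters. hs1262 was thus below all 3 sisters in the replicate 1 run and above all 3 in the replicate 2 run. The mean within-run difference was 9.41 kb (exact two-sided permutation test within runs, p = 0.5). With 16 arrangements, no p under 0.0625 was possible in this or any other within-run test here.

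The search was then extended to whole peak regions across the genome. A consensus region was any stretch where peaks from 2 or more of the 18 lists lay over each other; there were 63594, and at least 1 of the 8 lists called 62821 of them. Called in all 6 sister lists and in neither hs1262 list were 27 regions, 0.043% of those tested. Called in both hs1262 lists and in no sister list were 40 regions, 0.0637%. By Fisher's exact test per region (two-sided, Benjamini-Hochberg adjustment) 0 regions passed an adjusted p of 0.05. With 2 against 6 lists the smallest p that this test can give is 0.0357, which 67 regions reached before adjustment, and the smallest adjusted p was 1. This test does not take the run into account.

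Among the 27 lost regions, the one with the highest mean percentile in the lists that called it was the chromosome 3 region, chr3:66741255-66744995, with a width of 3741 bp and a mean percentile of 53.6 over the 6 sister lists (range 22.8 to 72.9). By width it ranked 2 of 27. The next in percentile was chr14:30055880-30059133 at the 38.3rd percentile, called in 3 of 10 lists of other runs. It was followed by chr6:7040909-7043246 at the 38.1st, also called in 3, and by chr13:51710147-51711993 at the 30.1st, called in 6. The fifth was chr2:72619203-72621543 at the 27.8th percentile, called in 2. Lost regions were thus mostly weak peaks: their median percentile was 21.9 and their median width 2338 bp. The 17850 regions called in all 8 lists had a median percentile of 65.7 and a median width of 3382 bp. Of the 27, 7 were called in 5 or more of the 10 lists of other runs, and none of them in 0. Of the 17850 regions called in all 8 lists, 17047 were called in 5 or more of the 10 and 10 in 0.

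By median the 40 gained regions were weaker still, with a median percentile of 18.7 and a median width of 1513 bp. Lost regions reached a mean percentile of 53.6 at most, but gained regions reached 95.3. The 5 with the highest percentile were between 5 and 370 bp wide, short stretches where a larger peak of one hs1262 list met a larger peak of the other, and none was called in a list of another run. The widest of these 5 was chr11:5142520-5142889, where the hs1262 peaks stood at the 88.8th percentile on average. In all, 14 gained regions were under 400 bp and 25 were at least 1 kb wide. Among the latter the highest mean percentile was 33.8. Widest of all was chr16:74597881-74600183, 2303 bp at the 17.3rd percentile. One gained region, chr3:67608553-67610270 at the 19.1st percentile, lay inside the chromosome 3 window. Of the 40, 19 were called in no list of another run and 0 in 5 or more. Among the 17850 regions called in all 8 lists these counts were 10 and 17047. All 14 gained regions under 400 bp were among the 19. Overlap of the hs1262 lists alone was enough to form a gained region, whereas the 17850 regions had to be called in all 8 lists. The counts of gained regions and of the 17850 therefore do not compare like with like.

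**Figure D2:**
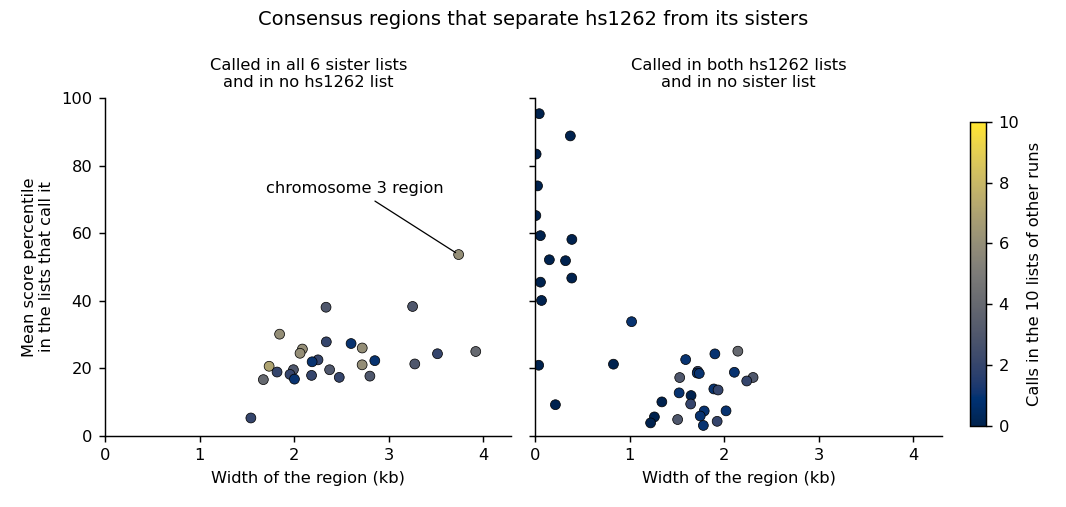
Width in kb and mean score percentile of the consensus regions called in all 6 sister lists and no hs1262 list (left) and of those called in both hs1262 lists and no sister list (right); each point is 1 region, coloured by how many of the 10 lists of other runs called it. The chromosome 3 region, at the 53.6th percentile, stands above the other lost regions, and every gained region above the 35th percentile is under 400 bp wide.

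A lost segment shared by both replicates can also arise for any pair of lists, so the same search was made for each of the 16 pairs of 1 list per run. The hs1262 pair shared 120 lost segments, against 353 for the hs1467 pair, 267 for the hs1586 pair and 396 for the hs1603 pair. Pairs of mixed lines shared 79 to 1330, and 13 of the 16 pairs shared at least as many as hs1262 (one-sided exact rank, p = 0.8125). The longest segment of the hs1262 pair was 4 tiles (2 kb), against 7, 7 and 8 tiles in the 3 sister pairs and 4 to 31 in mixed pairs (one-sided exact rank, p = 1). Lost regions numbered 27 in hs1262, against 25 to 42 in sister pairs and 9 to 94 in mixed pairs (exact p = 0.6875). Gained regions numbered 40, against 30 to 129 and 18 to 212 (exact p = 0.75). By each of these 4 counts the hs1262 pair lay within the range of the mixed pairs. The p-values rank it among all 16 pairs, the 3 sister pairs included. List size was not made equal between pairs, and hs1262 covered the most bases in each run.

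Inside the chromosome 3 window the order was different. There the longest shared lost segment was 3 tiles in the hs1262 pair, against 0 to 1 tile in the sister pairs and 0 to 3 tiles in mixed pairs. Of the 16 pairs, 3 reached 3 tiles, the hs1262 pair and 2 mixed pairs (one-sided exact rank, p = 0.1875).

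**Figure D3:**
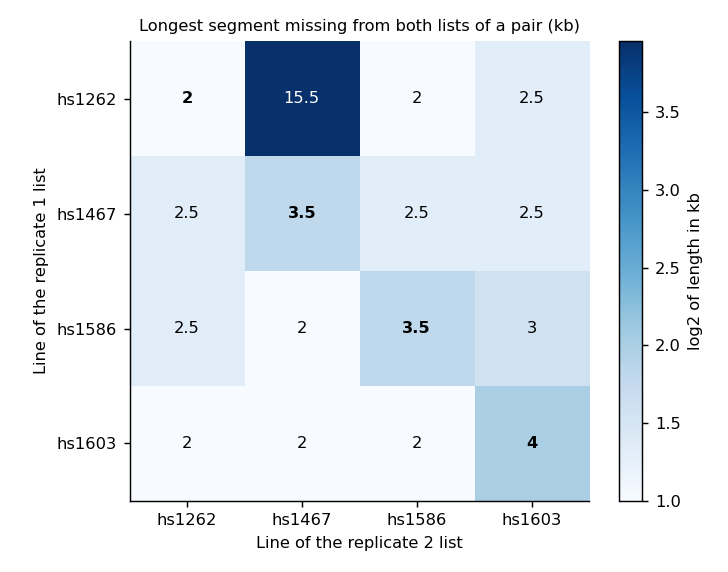
Length in kb of the longest segment missing from both lists of a pair and called in the other 6 lists, for the 16 pairs of a replicate 1 list (rows) and a replicate 2 list (columns), with pairs of the same line in bold and colour on a log2 scale. The hs1262 pair, at 2 kb, is below the 3 sister pairs, at 3.5, 3.5 and 4 kb, and the longest of all, 15.5 kb, joins hs1262 replicate 1 with hs1467 replicate 2.

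Most of the 120 shared segments were short: 86 had 1 tile, 18 had 2, 14 had 3 and 2 had 4. The sister lists called them at a median percentile of 40.2. Of the 120, 16 were called in no list of another run and 0 in all 10. By length the first was chr6:7041001-7043000, where the sister peaks stood between the 19.7th and 54.3rd percentiles. A peak was also present there in both hs72 lists and in 1 of 4 wild-type lists, but in 0 of 4 mm1179 lists. Of the same length was chr1:163746001-163748000, with a peak in 6 of 10 lists of other runs. Next came chr14:79582501-79584000, of 3 tiles (1.5 kb), with a sister peak in 6 of 6 lists, as the search required, and in 1 of 10 lists of other runs. It lay at the edge of peaks that both hs1262 lists called. The replicate 1 peak ended 0.441 kb before it. The replicate 2 peak, 3.95 kb wide at the 86.9th percentile, covered 84 bp of it. The chromosome 3 segment ranked 4 by this order, after the chromosome 14 segment of the same length.

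The longest segment lost in each sister line was called in hs1262. The search required this, since the other 6 lists, hs1262 included, had to call each tile. The longest one of hs1467 was chr11:111688001-111691500, where the hs1262 peaks stood at the 91.4th (replicate 1) and 84.9th (replicate 2) percentiles. For hs1586 it was chr13:15639001-15642500, with hs1262 peaks at the 95.2nd and 90.2nd percentiles. For hs1603 it was chr6:143446501-143450500, with hs1262 peaks at the 96.9th and 91.3rd percentiles. Both hs1262 lists covered each of these 3 segments in full. Each of them had a peak in all 10 lists of other runs, at a mean percentile of 85.4, 86.4 and 88.6 over all lists with a peak. The chromosome 3 segment of hs1262 had a peak in 6 of 10, at a mean percentile of 46.9, so it was called less often and ranked lower than the longest segments of the sister lines.

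Taken singly, the hs1262 lists had many more gaps than the pair. The search allowed no fewer lost tiles, since each tile lost in the pair was also lost in each list. Relative to its 3 run mates, hs1262 replicate 1 had 3087 lost segments, and 6.54% of the 119665 tiles that the 3 called were uncalled in it. The sister lists of that run had 8159 (hs1467), 3425 (hs1586) and 2898 (hs1603). hs1262 replicate 2 had 4069 lost segments, 2.69% of 238331 tiles, against 4877, 8028 and 14174 in the same sisters. By lost tiles hs1262 had the fewest in both runs. hs1262 replicate 1 lost 7822 tiles, against 13281 (hs1467), 9764 (hs1586) and 14126 (hs1603), and hs1262 replicate 2 lost 6419, against 8399, 12250 and 22554. By segments it had the fewest in the replicate 2 run only, since hs1603 had fewer in the replicate 1 run.

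The longest gaps of replicate 1 were chr4:106640501-106656000 (15.5 kb), chr3:30308001-30322500 (14.5 kb) and chr11:98924001-98937500 (13.5 kb), and replicate 2 covered all 3. In replicate 2 the longest were chr11:3101001-3104000 and chr8:59934501-59937500, of 3 kb each, and chr6:30508001-30510500 of 2.5 kb. At chr11:3101001-3104000 hs1262 replicate 1 had a peak at the 6.66th percentile, whereas the replicate 1 lists of all 3 sisters had none. At chr6:30508001-30510500 hs1262 replicate 1 had a peak of 25.2 kb at the 99.4th percentile. None of these long gaps was shared by the 2 hs1262 replicates.

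The chromosome 4 gap of hs1262 replicate 1 was shared with another line. Its 15.5 kb were the longest segment that any of the 16 pairs had in common, and the second list of that pair was hs1467 replicate 2. Within the replicate 2 run, the gap of hs1467 spanned 22.5 kb, chr4:106640501-106663000, a domain in which hs1262 replicate 1 had no peak either. The peak-free stretch around it was 43.7 kb in hs1262 replicate 1 and 31.7 kb in hs1467 replicate 2. hs1262 replicate 2 covered the whole domain with 1 peak of 29.6 kb, but with a low score of 52.1 at the 9.01st percentile. In the 10 lists of other runs 55.0% to 93.2% of the domain was covered by 3 to 5 peaks, the strongest of which stood at the 70.0th to 91.7th percentile. By coverage of the domain, hs1262 replicate 1 matched hs1467 replicate 2, at 0%. hs1262 replicate 2 matched hs1586 replicate 1 and hs1603 replicate 1, at 100%. By percentile, hs1262 replicate 2 was below every other list with a peak there. The next lowest was hs1603 replicate 2, whose strongest peak stood at the 53.4th.

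**Figure D4:**
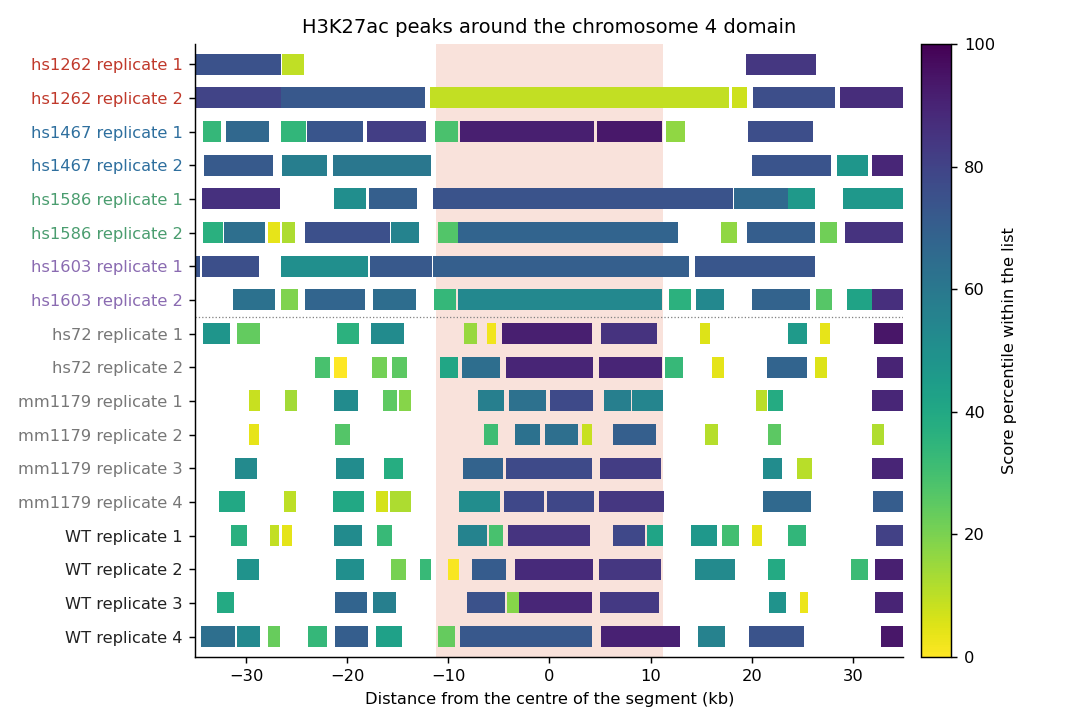
Peaks of the 18 lists around the chromosome 4 domain, by distance in kb from its centre; each row is 1 list, each bar a peak coloured by its score percentile, and the shaded band the 22.5 kb domain. The band is empty in hs1262 replicate 1 and hs1467 replicate 2, is filled by 1 weak peak in hs1262 replicate 2, and is at least 55.0% covered in the other 15 lists.

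Whole consensus regions gave the same picture. hs1262 replicate 1 missed 1354 of the 19547 regions that its 3 run mates called, or 6.93%, and hs1262 replicate 2 called 96.5% of those 1354. Sister lists of that run missed 877 (hs1467), 1821 (hs1586) and 2001 (hs1603) regions alone. Their own replicate 2 lists called 95.8%, 96.5% and 97.0% of these, so the hs1262 share was like theirs. In the other direction, hs1262 replicate 1 alone called 1803 regions, and 1498 of them, 83.1%, were also called by hs1262 replicate 2. The same share was 67.5% in hs1467, 74.4% in hs1586 and 57.8% in hs1603. hs1262 replicate 2 missed 1155 of 42935 regions, or 2.69%, the lowest share of the 4 lists in its run, where the sisters missed 4.02%, 4.13% and 6.51%. It alone called 1667 regions, of which 71, or 4.26%, were also called by replicate 1. For the sisters this share was 11.2% (hs1467), 4.01% (hs1586) and 5.77% (hs1603). The lists of the replicate 1 run were shorter, so a region called in one run and not in the other need not differ between replicates in the mark.

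The sizes of the lists differed far more between runs than between lines. hs1262 had 28280 peaks in replicate 1 and 58753 in replicate 2, against 32472 and 56475 in hs1467, 26550 and 57014 in hs1586, and 26919 and 54375 in hs1603. In the replicate 1 run hs1262 had 367 peaks fewer than the sister mean and lay within the sister range. In the replicate 2 run it had 2798 more and lay above all 3 sisters. The mean within-run difference was 1216 peaks (exact two-sided permutation test within runs, p = 0.5).

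Covered length was the measure on which hs1262 was highest in both runs. Peaks covered 93.6 Mb in hs1262 replicate 1, against 90.9 Mb in hs1467, 89.6 Mb in hs1586 and 89.6 Mb in hs1603. In the replicate 2 run they covered 166.0 Mb in hs1262, against 162.2, 153.6 and 140.9 Mb in the same sisters. The difference from the sister mean was 3.56 Mb in the replicate 1 run and 13.8 Mb in the replicate 2 run, 8.67 Mb on average (exact within-run permutation test, p = 0.25). The test did not pass its threshold, and could not have done so at this number of lists.

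Mean peak width did not order the lines in the same way in both runs. It was 3310 bp (replicate 1) and 2826 bp (replicate 2) in hs1262, against 2801 and 2872 bp in hs1467, 3374 and 2695 bp in hs1586, and 3330 and 2592 bp in hs1603. The mean within-run difference was 124.3 bp (exact within-run permutation test, p = 0.625).

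Retention of wild-type regions asks how many of the 23161 consensus regions called in all 4 wild-type lists a knockout list also called. It was 70.4% in hs1262 replicate 1, against 70.5% in hs1467, 66.8% in hs1586 and 59.7% in hs1603 of the same run. In the replicate 2 run it was 99.9% in hs1262 and 99.9% in each sister. The mean within-run difference was 2.39 percentage points (exact within-run permutation test, p = 0.5). The low retention was a property of all 4 lists of the replicate 1 run, in hs1262 as in its sisters.

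**Figure D5:**
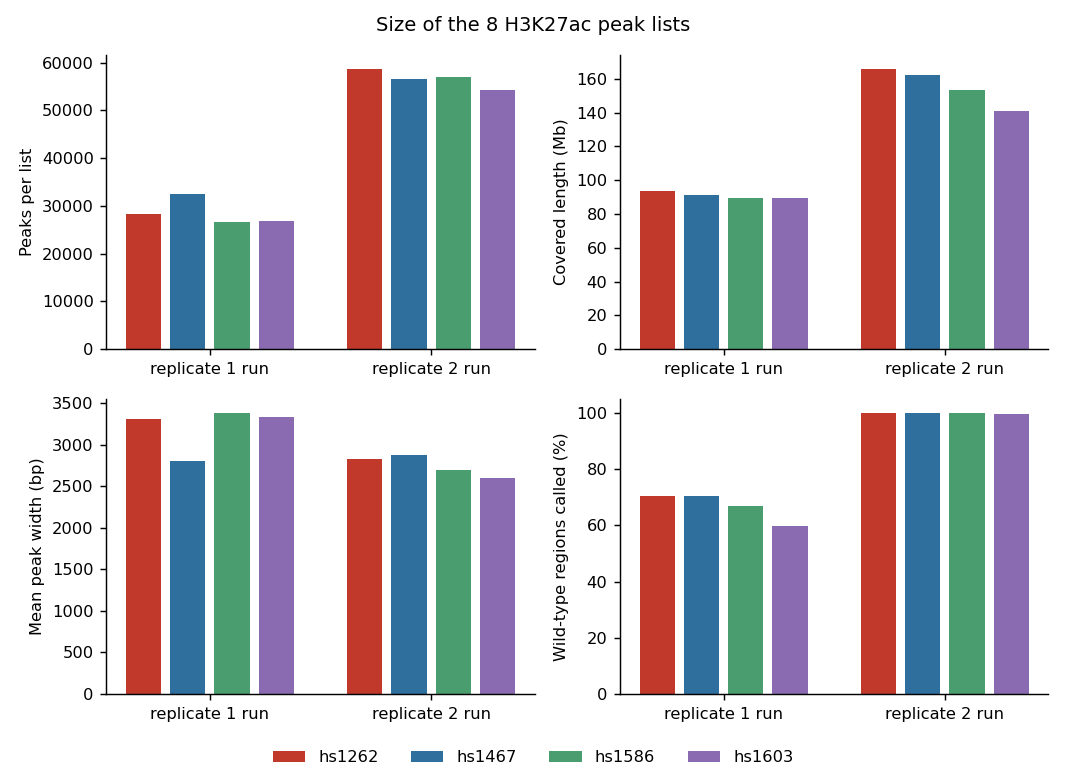
Peaks per list, covered length in Mb, mean peak width in bp and percentage of wild-type regions called for the 8 lists, by run, with 1 bar per list and no error bars. The replicate 2 run lies above the replicate 1 run in peaks, covered length and wild-type regions in all 4 lines, and hs1262 covers the most bases in each run, 93.6 and 166.0 Mb.

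The strongest wild-type regions were not spared in that run. Of the 1718 regions with a mean wild-type percentile of at least 95, hs1262 replicate 1 called 85.7%, against 87.5% in hs1467, 78.6% in hs1586 and 57.8% in hs1603. hs1262 replicate 2 called all 1718. Of the 245 regions that hs1262 replicate 1 missed, 102 were missed by all 3 sisters of the run too, and 241 by at least 1 of them. Only 4 of the 245 were missed by hs1262 alone in its run. Among regions with a wild-type percentile between 80 and 95, hs1262 replicate 1 called 70.0%, against 67.8%, 64.0% and 51.1% in the 3 sisters, and here it was the highest of the run.

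Similarity between lists was measured by the Jaccard index, the bases covered by both lists divided by the bases covered by either. hs1262 had a mean index with its 3 run mates of 0.645 (replicate 1) and 0.739 (replicate 2). The same mean was 0.623 to 0.644 for the sister lists of the replicate 1 run and 0.728 to 0.742 for those of the replicate 2 run. The mean within-run difference was 0.0091 (exact within-run permutation test, p = 0.3125). hs1262 lay inside the range of the sister lists in the replicate 2 run and just above their highest value in the replicate 1 run.

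The run weighed more than the line in these indices. Pairs of the same run had a mean index of 0.692 ± 0.053 between hs1262 and a sister (SD, n = 6 pairs) and 0.679 ± 0.063 between sisters (SD, n = 6 pairs). Pairs of different runs had 0.492 ± 0.016 within a line (SD, n = 4 pairs) and 0.499 ± 0.023 between lines (SD, n = 12 pairs). hs1262 replicates 1 and 2 had an index of 0.504 with each other. hs1262 replicate 1 had 0.515, 0.519 and 0.529 with the replicate 2 lists of the 3 sisters, and hs1262 replicate 2 had 0.498, 0.480 and 0.465 with their replicate 1 lists. The 2 hs1262 lists thus did not resemble each other more than lists of different lines from these runs did. Pairs share lists, so these values describe the 8 lists and carry no test.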

How the data were processed

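H3K27ac ChIP-seq peak lists of 18 libraries were used, 1 per library. The labels gave groups and replicate numbers, and the run tag came from the names of the deposited lists. CASAVA, bcl2fastq 2.17, cutadapt 1.1, Bowtie 0.12.8, MACS 1.4.2 and build mm9 are named in the submitters' processing notes. Each deposited list gives a position and the authors' score per peak, 40 to 3233 over all lists. The score was used only to filter peaks or as a percentile within a list. The lists hold no reads, so depth is unknown, and a missing peak shows only that no call was made.

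Consensus regions were stretches covered by at least 2 of the 18 lists, called by an overlap of 1 bp. Tiles of 500 bp were called at 250 covered bp, and adjacent lost tiles formed a segment. Differences were hs1262 minus the mean of its 3 run mates, averaged over both runs, with exact two-sided permutation within runs. The run is also the replicate number. Same-numbered lists of different lines deviated together from the means of their lines in region calls, with correlations of 0.325 to 0.402 over the 6 pairs of lines, so the numbers pair the lists. Nothing shows that replicates came from separate litters, so p-values measure only the spread between these lists, which may be technical. No 2 lists were identical.

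Named were the 3 longest lost segments per hs1262 list and for the hs1262 pair, with ties going to the higher percentile. Also named were the 5 lost and 5 gained regions with the highest percentile; of the gained ones, those that were narrow slivers are summarised. The widest gained region and the gained region in the chromosome 3 window were chosen after their values were seen. Members and lists were chosen with earlier results of these data known. The annotation at hand was of GRCm38, so regions carry no gene names and the limb origin was not checked on marker genes. Scripts were tested on deletions planted in the real hs1262 lists and, for the permutation, on made-up values. Also tried were only peaks scoring 100 or more, lists shortened to their top 26550 peaks by score (equal lists), autosomes, 50% coverage of a region, regions of 1 list or of the 8 lists, tiles of 1000 bp, any covered base of a tile, no replicate block, and leaving out each list. All coordinates are 1-based. Software was Python 3.11.15, matplotlib 3.10.9, numpy 2.4.6, pandas 2.3.3 and scipy 1.17.1.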

Additional observations from a re-analysis of the deposited data

Results flagged for a closer look

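The covered length in the chromosome 3 window around the neighbourhood of Shox2 had opposite directions in the 2 runs. hs1262 minus the sister mean was -5.78 kb in the replicate 1 run, where hs1262 lay below all 3 sisters. It was 24.6 kb in the replicate 2 run, where hs1262 lay above all 3. The difference between the runs was not tested, since each run holds 1 hs1262 list. In the same runs the covered length over the genome was above all 3 sisters both times, by 3.56 Mb and 13.8 Mb. Of the 4 mm1179 lists and the 4 wild-type lists, the groups large enough for such a check, none stood apart from its group in 11 comparisons of list size, width, window values and retention.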

How the results depend on the processing

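Of 151 values recomputed under other settings, 1 reversed and 41 moved; of the other 109, differences had the same sign and passed no threshold but often differed in size, and counts stayed within 1.5 times. The longest lost segment in the chromosome 3 window was 0 kb with a minimum score of 100, which removes the peaks of hs1467 replicate 2 and hs1586 replicate 1 there (scores of 75.1 and 74.9). It was also 0 kb with equal lists, which leave the hs1586 replicate 1 list whole. It was 2 kb with tiles of 1000 bp and 2.5 kb with any covered base. With autosomes or 1 list left out it was 1.5 to 2.5 kb. Without hs1262 replicate 2, chr3:66743001-66744500 was still lost, and chr3:66763501-66765000 tied with it at 1.5 kb. The other settings do not bear on tiles. With a minimum score of 100, there were 5 lost and 9 gained regions, 51 shared segments and 1585 segments of hs1262 replicate 1. Equal lists gave 15 lost and 25 gained regions, 66 shared segments with a longest of 7 tiles, and 2087 segments of replicate 2; peak number is equal there by construction. Regions of at least 1 list gave 23 gained regions. Tiles of 1000 bp gave 62 shared segments and 2693 in replicate 2, and any covered base gave a longest segment of 5 tiles. Leaving out 1 list at a time gave differences of -367 to 2798 peaks, the negative one without hs1262 replicate 2, and of 3.56 to 13.8 Mb, 32.4 to 175.7 bp, 0.032 to 4.76 points of retention and 0.0032 to 0.0149 in Jaccard index. Counts then ran over 31 to 1126 lost and 44 to 1246 gained regions and 149 to 1803 shared segments with a longest of 4 to 24 tiles. Lost counts were highest without hs1262 replicate 2, and gained counts without hs1262 replicate 1. Segments ran over 3087 to 6323 in the replicate 1 run, highest without hs1467, and 4069 to 8957 in the replicate 2 run, highest without hs1603. The lowest exact within-run permutation p was 0.0833, for peaks without hs1467 replicate 1 and for covered length without hs1467 replicate 2. These settings had 12 arrangements, which allow no lower p. The within-run tests therefore could not pass a threshold of 0.05 under any setting. Without the replicate block there were 28 arrangements. The exact p was then 0.714 for peaks, width and retention, 0.571 for covered length and 0.607 for the Jaccard index, so none passed.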

Other observations

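The lists of the hs1262 runs, sisters included, had wider peaks than those of other runs. Mean peak width was 3310 and 2826 bp in hs1262, and 2836 bp in hs1467, 3034 bp in hs1586 and 2961 bp in hs1603 on average (n = 2 each), against 2337 ± 125.7 bp in hs72 (SD, n = 2), 2335 ± 264.5 bp in mm1179 (SD, n = 4) and 2183 ± 104.4 bp in wild type (SD, n = 4). The covered length was 93.6 and 166.0 Mb in hs1262, and 126.6 Mb in hs1467, 121.6 Mb in hs1586 and 115.3 Mb in hs1603 on average, against 97.1 ± 11.9 Mb in hs72, 89.0 ± 22.5 Mb in mm1179 and, in the wild-type lists, 86.2 ± 11.1 Mb. The width was thus common to all 4 lines of these runs, and not particular to hs1262.

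Besides the 3 adjacent tiles of the chromosome 3 segment, 1 other tile of the window was uncalled in both hs1262 lists and called in all 6 sister lists, chr3:66764501-66765000. The sister peaks over it had a mean percentile of 22.0, and 2 of 10 lists of other runs called it. The weak hs1262 replicate 2 peak at chr3:66763138-66764608 ended inside this tile.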
